A study of Bos taurus with 6 samples.

Results

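Single-exon intronic transcripts were examined in longissimus dorsi muscle, the long muscle of the back, of 3 Shandong black cattle and 3 Luxi cattle. A transcript was counted as a member when the assembly gave it no annotated gene, when it had 1 exon, when it lay wholly between the start and the end of an annotated transcript on the same strand, and when it touched no exon of that gene. The gene around it is called its host. Of the 849465 transcripts listed in the 6 libraries, 144772 were members, and they lay in 5501 hosts out of 14203 annotated genes that have an intron. The members were chosen by their structure in the assembly, and an assembled transcript exists only where reads were found, so their presence is a measurement and not a property of the genome.

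All animals were 18 months old and gave 1 library each, numbered 1 to 3 within its breed in the labels. Luxi cattle is a local Chinese beef breed, and Shandong black cattle is a beef breed derived in part from it. The breeds came from different suppliers, so breed and farm of origin cannot be told apart. The study set the breeds side by side to look at fat deposition in muscle. RNA was taken from whole muscle, so nuclear and cytoplasmic RNA and all cell types of the tissue were read together.

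Introns are copied into the primary RNA of a gene and are cut out by the spliceosome, usually while the polymerase is still moving. The excised introns are normally degraded within the nucleus, so RNA-Seq of a whole tissue shows them at a low level. Reads in an intron can come from RNA not yet spliced, from a retained intron, from a separate gene or pseudogene inside the intron, from genomic DNA, or from repeated sequence that also lies elsewhere. In these files such sources cannot be told apart, and the neutral name single-exon intronic transcript is used for that reason.

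The unit is FPKM, fragments per kilobase of transcript scaled by the depth of the library, and coverage is the average read depth along a transcript. No single-exon transcript in any library was shorter than 200 bases or had a coverage under 2.5. That coverage equals an FPKM of 0.171 to 0.178 in Shandong black cattle and of 0.139 to 0.143 in Luxi cattle, whose libraries were deeper, at 17.5 to 18 against 14.1 to 14.6 gigabases of aligned sequence. A value of 0 below therefore means that nothing was assembled, not that the intron held no read. Depth did not overlap between the breeds, so breed and depth cannot be told apart in the numbers, shares, lengths and ratios below.

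Luxi animal 1 stood apart from the other 5. Transcripts of the mitochondrial genome made up 16.6% of its FPKM, against 4.82 to 7.91% elsewhere. The summed FPKM of 10 markers of the muscle fibre was 21508 in this animal and 43664 to 72070 in the others. All 10 were listed, so the tissue label was borne out by its markers. Markers of fat cells, fibroblasts and endothelium separated the breeds. The summed FPKM of 6 fat cell markers was 115 to 179.7 in Shandong black cattle and 2.45 to 19.3 in Luxi cattle, and that of 5 fibroblast markers was 106 to 157 against 325 to 439. The 4 endothelial markers that were listed summed to 16.3 to 16.9 against 21.7 to 61.7, while VWF was absent from every file. The 5 macrophage markers overlapped, at 15 to 24.4 against 5.14 to 16.9, as did the listed markers of blood (0.404 to 0.539 against 0 to 0.838) and satellite cells (0.615 to 1.23 against 0.317 to 2.22). The part of these cell types in the results below was not tested, and in bulk tissue fewer cells of a type and less RNA per cell cannot be told apart.

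The number of single-exon intronic transcripts was 22234, 33424 and 24595 in Shandong black cattle 1, 2 and 3, and 28629, 16902 and 18988 in Luxi cattle 1, 2 and 3. The breeds overlapped, because Luxi animal 1 had more members than Shandong black animals 1 and 3. The mean difference, Luxi minus Shandong black, was −5245 (exact two-sided permutation test, p = 0.4), and the smallest p that 3 against 3 animals allows is 0.1. As a share of all transcripts of a library, members made up 18.1, 20.7 and 18.2% in Shandong black cattle and 16.3, 14.0 and 14.2% in Luxi cattle. Here the breeds did not overlap, and the exact permutation p was the smallest possible, 0.1.

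Members carried little of the signal. They held 2.58, 3.97 and 2.70% of the summed FPKM in Shandong black cattle, and 4.46, 2.04 and 1.67% in Luxi cattle. The highest and the lowest value were both in Luxi cattle. The means were 3.08% ± 0.771 (SD, n = 3) in Shandong black and 2.72% ± 1.51 (SD, n = 3) in Luxi cattle, a difference of −0.36 percentage points (exact permutation test, p = 0.6). This difference changed sign when Shandong black animal 2 (0.0816) or Luxi animal 3 (0.164) was left out, and it was −1.23 points without Luxi animal 1. FPKM weighs a short transcript as much as a long one, and as a share of aligned bases the members held 1.40, 1.96 and 1.41% against 2.43, 0.62 and 0.679%. On that scale Luxi animals 2 and 3 lay below all Shandong black animals and Luxi animal 1 above them.

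Between the breeds, whose libraries also differed in depth without overlap, the members themselves differed in size. Their median length was 546, 478 and 503 bases in Shandong black cattle and 471, 347 and 347 bases in Luxi cattle, with no overlap (exact permutation test, p = 0.1). Together they covered 18.8, 24.3 and 19.3 megabases in Shandong black cattle, and 21.7, 8.79 and 9.84 megabases in Luxi cattle. Luxi animals 2 and 3 thus had less intron sequence covered than any other animal. Their median FPKM, 0.246 to 0.298 over the 6 animals, lay close above the limit of assembly. A member reached an FPKM of 1 in 1.43 to 5.74% of cases, and Luxi animal 1, with 1644 such members, had the most.

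**Figure D1:**
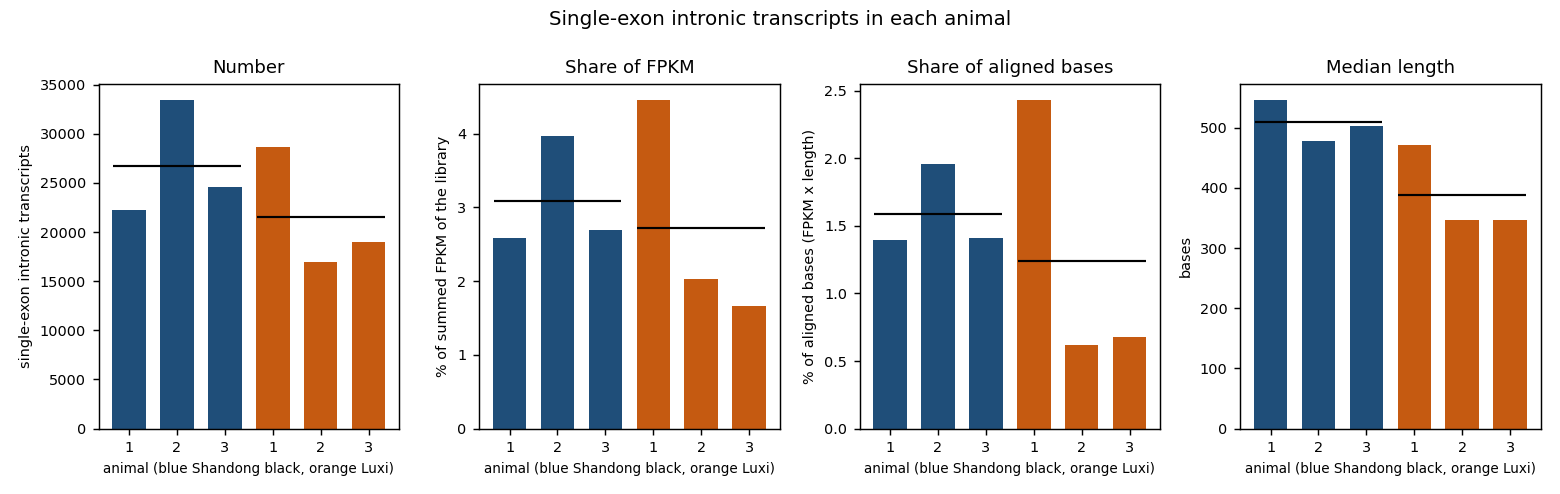
Number of single-exon intronic transcripts, their share of the library's FPKM and of its aligned bases in percent, and their median length in bases, with 1 bar per animal (blue Shandong black, orange Luxi), the breed mean as a black line and no error bars. Number and both shares overlap between the breeds, with Luxi animal 1 above Luxi animals 2 and 3, whereas all 3 Luxi animals lie below the 3 Shandong black animals in median length.

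More intronic single-exon transcripts were assigned to the strand of the host than to the other. The assembly was run with a stranded setting, but the strand handling of the library kit is not given in the sources used here, so these ratios rest on that setting. For each intronic single-exon transcript on the opposite strand there were 4.12, 4.16 and 3.83 members in Shandong black cattle, and 2.70, 2.71 and 2.31 in Luxi cattle. Every library had more on the host's strand, and the Luxi ratio was lower without overlap (exact permutation test, p = 0.1). In aligned bases the excess was larger, at 7.53, 8.96 and 7.20 in Shandong black cattle and 7.69, 5.03 and 3.55 in Luxi cattle, and the breeds overlapped. The number on the opposite strand ranged from 5403 to 10613 and also overlapped between the breeds. Single-exon transcripts outside genes or spanning them, which share the assembly limits, were more numerous, and the number of members per such transcript was 0.490, 0.500 and 0.473 in Shandong black cattle and 0.373, 0.370 and 0.354 in Luxi cattle (p = 0.1, exact permutation test).

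The rest of each library was compared by the same rule. Annotated transcripts carried 65.3 to 73.9% of the FPKM, single-exon transcripts outside genes or spanning them 16.2 to 19.9%, and transcripts assembled on exons of a host's strand 5.07 to 8.45%. Transcripts of several exons inside an intron carried 0.0588 to 0.269%. None of the 8 other classes separated the breeds without overlap in share of FPKM, and the adjusted p over the classes was 0.9 to 1 (exact permutation tests).

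Within an intron the members lay towards the 5′ end. In introns of at least 50 kilobases, which held 38.9 to 49.5% of members, the first of 10 equal parts held 12.6 to 15.3% of members and the last 4.21 to 5.41%. In aligned bases the slope was steeper, with 15.3 to 19.2% in the first part and 2.22 to 3.28% in the last. The first 5 parts together held 60.6, 63.1 and 62.9% of members in Shandong black cattle and 61.0, 64.9 and 62.8% in Luxi cattle. These shares overlapped (exact permutation test, p = 0.7). In aligned bases they were 70.8, 75.3 and 73.0% against 70.3, 69.6 and 70.4%, a small difference without overlap (p = 0.1, exact permutation test).

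The fragments were also longer near the 5′ end. Median length in the first part was 652.5, 575 and 614 bases in Shandong black cattle and 537, 373 and 364.5 bases in Luxi cattle. In the last part it was 451, 391.5 and 385 bases against 387, 285.5 and 313 bases. All 6 animals showed the shortening along the intron. Over introns of every size, 27.3 to 30.5% of members lay in the first intron of the host and 13.5 to 18% lay within 1 kilobase of one of its exons.

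**Figure D2:**
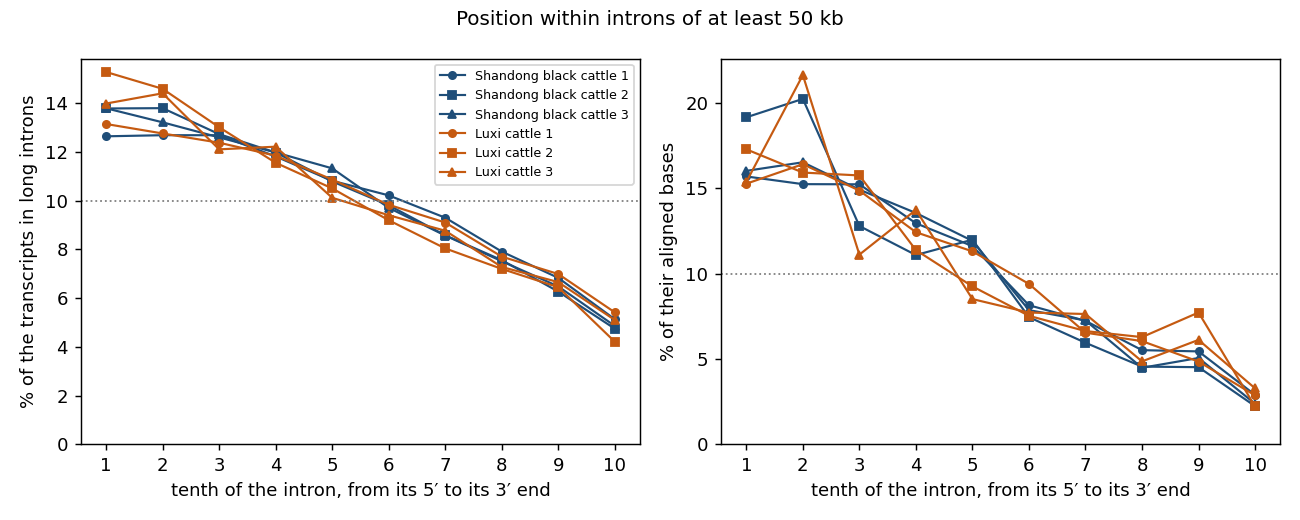
Share of members by number (left) and by aligned bases (right), in percent, in each of 10 equal parts of introns of at least 50 kilobases, from the 5′ to the 3′ end of the intron, with 1 line per animal and a dotted line at an even share. All 6 lines fall, from 12.6 to 15.3% of the number in the first part to 4.21 to 5.41% in the last.

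Most members were not found again at the same place. When members that overlapped on one strand were merged, 83510 loci remained. Of these, 58764 (70.4%) were assembled in 1 animal only, with a median length of 348 bases. The 725 loci present in all 6 animals were 0.868% of loci, had a median length of 3431 bases and held 20.2% of the members' FPKM (13.1 to 43.3% by animal), most of it from the TMEM245 locus described next, which alone held 12.6%. Merging over animals can itself lengthen a locus found in more of them, so these lengths are not those of single transcripts and are not compared. A further 771 loci were present in all Shandong black and no Luxi animals, and 232 in all Luxi and no Shandong black animals. Since the median FPKM lay close above the limit of assembly, a locus missing from an animal can still have held reads there.

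The strongest locus lay in TMEM245, which encodes a membrane protein, at chr8:98676196-98676515 on the minus strand of ARS-UCD1.2. It sits in intron 2 of 17, an intron of 1830 bases, and was assembled as a single transcript of 286 to 316 bases in each animal. Its FPKM was 992, 915 and 1239 in Shandong black cattle and 1119, 2934 and 427 in Luxi cattle. The extremes were both Luxi animals and the breeds overlapped. The annotated TMEM245 transcripts had an FPKM of 3.99 to 4.51 in Shandong black and 7.65 to 8.66 in Luxi cattle (limma, adjusted p = 0.0608), so per kilobase the fragment inside the intron exceeded its host by far in every animal. Without this locus the members' share was 2.28, 3.71 and 2.35% in Shandong black cattle and 4.08, 1.32 and 1.57% in Luxi cattle. In a later cattle assembly TMEM245 holds the microRNA gene MIR32. Whether the fragment and MIR32 overlap was not tested, because the assemblies differ in coordinates.

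The second locus lay in TTLL7, which encodes an enzyme that adds glutamate chains to tubulin, at chr3:60156196-60156727 on the plus strand. The summed intronic FPKM of TTLL7, 99.1% of it from this locus, was 170.3, 102 and 86.8 in Shandong black cattle and 42.6, 77.0 and 64.5 in Luxi cattle. All Luxi animals lay below all Shandong black animals, but the log2 fold change of −0.93 ± 0.47 (SE) did not pass the test (limma, adjusted p = 0.51). The annotated gene was level, at an FPKM of 2.02 to 2.68. TTLL7 holds the pseudogene LOC100300942 in the later assembly.

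In all, 13 loci had a mean FPKM of at least 5. Among them were AHCYL2, whose product resembles adenosylhomocysteinase, with 5.77 to 43.1, and TBC1D32, a gene of cilium formation, with 4.35 to 12.9. ADAL, an adenosine deaminase relative, was at 0 in Shandong black animal 3 and at 5.30 to 25.7 elsewhere. PIK3CA, the catalytic subunit of phosphoinositide 3-kinase, and EIF4G3, a translation initiation factor, were of another kind, because their merged loci were 28258 and 21779 bases long. PIK3CA was even across animals, at 3.22 to 7.74. Of the 13 hosts, 5 hold an annotated pseudogene in the later assembly (38.5%), against 394 of the 5079 hosts that could be matched by name (7.76%), and 11 hold some annotated gene (84.6% against 28.9%). These shares describe hosts chosen by level, were not matched for the span of the host and carry no test. Coordinates could not be compared between the assemblies.

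Other hosts had many weak fragments in place of 1 strong locus. Of 163 hosts with a mean intronic FPKM of at least 10, only 6 had more than 50% of it in a single locus. The median share of the strongest locus was 5.78%. These hosts were long genes, with a median span of 342 kilobases, and a median of 11.1% of their intron bases was covered. The summed FPKM of such a host grows with the number of fragments and cannot be compared with the FPKM of its exons. For hosts set beside their gene, the summed values serve to compare animals. For FOXP2, LOC101906240, AUTS2, SOX6, RYR3, ATP8B1 and ZNF521 the level averaged over all intron bases is also given. TMEM245 and the other 9 of the 10 highest hosts held 17.6% of intronic FPKM, and the 100 highest held 35.4%.

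**Figure D3:**
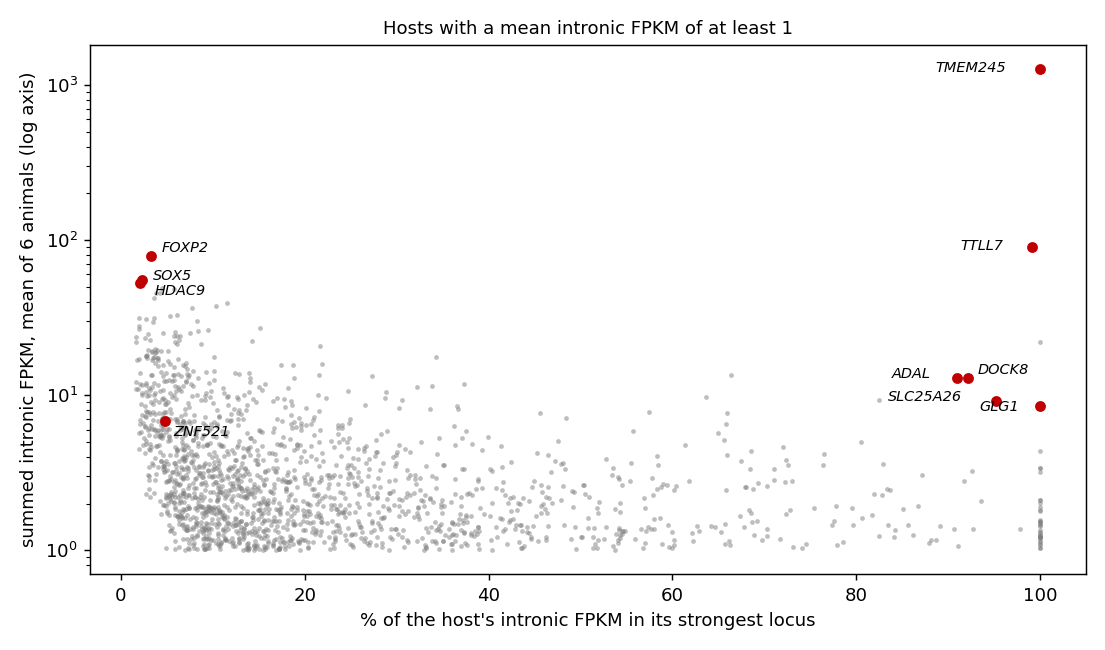
Summed intronic FPKM per host, mean of 6 animals on a log axis, against the percentage of it that lies in the host's strongest locus, with 1 point per host of mean FPKM at least 1. TMEM245 and TTLL7 lie at the right, with 100 and 99.1% in 1 locus, and FOXP2, with 3.31%, lies at the left.

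FOXP2, a forkhead transcription factor best known from the nervous system, had the third highest intronic FPKM. It was 83.1, 119.9 and 96.2 in Shandong black cattle and 104, 54.7 and 16.5 in Luxi cattle, from 257, 289 and 294 against 296, 194 and 45 members. The members covered 43.8 to 48.9% of its intron bases in Shandong black cattle and Luxi animal 1, but 18.9 and 3.83% in Luxi animals 2 and 3. The annotated FOXP2 transcripts were at 0 in 4 animals and at 0.191 and 0.348 in Shandong black animal 2 and Luxi animal 2. Averaged over all intron bases, the intronic level was 0.149, 0.222 and 0.167 in Shandong black cattle and 0.171, 0.0536 and 0.0136 in Luxi cattle. The breeds overlapped, and the difference did not pass the test (log2 fold change −1.09 ± 0.66 SE, limma adjusted p = 0.594).

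Other regulators of transcription were among the highest hosts. SOX5, an HMG-box factor of cartilage and neurons, had an intronic FPKM of 64.7, 65.5 and 24.6 in Shandong black cattle and 60.02, 65.5 and 49.1 in Luxi cattle. HDAC9, a histone deacetylase that binds MEF2 factors in muscle, had 62.9, 62.5 and 64.1 against 93.3, 13.9 and 21.9. Both overlapped between the breeds, and HDAC9 was even in Shandong black and spread in Luxi cattle. NPAS3, a bHLH-PAS factor, had 60.6, 83.4 and 56.8 in Shandong black cattle and 49.3, 33.7 and 8.55 in Luxi cattle. NPAS3 was lower in every Luxi animal, with an adjusted p of 0.503 (limma). Its annotated transcripts reached at most an FPKM of 0.17, and transcripts assembled on its exons were at 0 to 2.25.

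BMPR1B, a type I receptor for bone morphogenetic proteins, went the other way. Its intronic FPKM was 33.6, 38.7 and 33.6 in Shandong black cattle and 49.5, 47.6 and 85.8 in Luxi cattle. Every Luxi animal was higher, and the members of Luxi animal 3 covered 53.0% of the intron bases against 19.8 to 21.5% in Shandong black cattle. The log2 fold change of 0.72 ± 0.49 (SE) did not pass the test (limma, adjusted p = 0.653).

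The remaining hosts of highest level spanned other functions. The long non-coding RNA gene LOC101906240 had the steadiest summed FPKM. It was 42.4, 40.0 and 43.4 in Shandong black cattle and 41.8, 36.6 and 32.6 in Luxi cattle. Averaged over all intron bases its level was not steady. It was 0.205, 0.187 and 0.239 in Shandong black cattle and 0.256, 0.0764 and 0.0575 in Luxi cattle. SLC25A21, a mitochondrial carrier of oxodicarboxylates, ranged from 27.7 to 73.1, and ENOX1, a cell-surface oxidase, from 16.5 to 71.6. WWOX, an oxidoreductase of a fragile site, ranged from 2.79 in Luxi animal 3 to 82.8 in Shandong black animal 2, and from 2.79 to 46.5 within Luxi cattle. PRKG1, the cGMP-dependent protein kinase, was at 106 in Luxi animal 1 and at 12.4 to 30.7 elsewhere. NAV2, a cytoskeletal protein of neurite growth, ranged from 11.2 to 50.1, and ROR1, a Wnt5a receptor, from 10.4 to 54.0. BNC2, a zinc finger protein, was at 2.92, 0 and 49.2 in Shandong black cattle and at 84.0, 25.2 and 34.0 in Luxi cattle. In BNC2 the assembly also placed transcripts on the exons, with an FPKM of 58.7 and 15.2 in Luxi animals 2 and 3, so part of its signal there is counted outside the members.

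Hosts were long genes and, for the most part, weakly expressed ones. Their median span was 38.4 kilobases, against 13.6 kilobases for other genes with an intron. When genes were ranked by span into 5 equal groups, 13.7% of the shortest and 64.1% of the longest group were hosts. By type, 4688 hosts were protein coding and 375 were long non-coding RNA genes in the later assembly, and 422 had no match there. In any 1 animal 2560 to 3541 genes were hosts, 979 were hosts in all 6 animals, and 1482 in 1 animal only.

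The share of genes that were hosts in an animal fell with the FPKM of the gene in that animal. Among genes whose annotated transcripts were at 0, 32.4 to 41.4% were hosts, and among those with an FPKM between 0.1 and 1, 31.4 to 42.0% were. Between 1 and 10 the share was 7.57 to 13.6%, between 10 and 100 it was 2.07 to 4.40%, and above 100 it was 0.479 to 2.73%. In all 6 animals every band above an FPKM of 1 had a lower share than every band below it. Span did not follow the same order, since genes with an FPKM between 1 and 10 had the longest median span of all bands, at 27.7 to 29.5 kilobases.

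**Figure D4:**
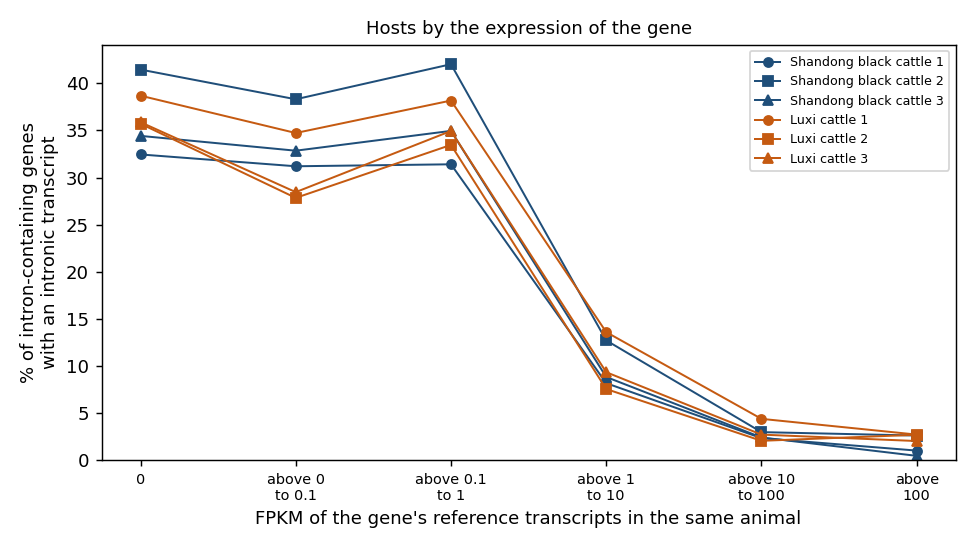
Percentage of intron-containing genes that held at least 1 single-exon intronic transcript, by band of the FPKM of the gene's annotated transcripts in the same animal, with 1 line per animal. The share is 27.8 to 42.0% in the 3 bands up to an FPKM of 1 and at most 13.6% in the 3 bands above it.

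Across the hosts of an animal, intronic FPKM rose weakly with the FPKM of the annotated gene. Spearman's rank correlation was 0.228 to 0.328 in the 6 animals, with a median of 0.257, and 0.0235 to 0.135 among hosts with an intronic FPKM of at least 1. With the level averaged over intron bases in place of the sum it was 0.117 to 0.181, with a median of 0.156. It was 0.270 to 0.382 when transcripts assembled on the exons were added to the gene. The rank correlation with the number of intron bases was higher, at 0.522 to 0.656. These are descriptions across genes of 1 library, which share its depth and are not replicates. The annotated gene was at 0 in 27.6 to 37.6% of hosts, and with assembled transcripts on exons added it was at 0 in 6.48 to 9.81%. In most hosts with an annotated FPKM of 0, then, the assembly held exon reads under another name.

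The breeds were compared for each host on log2(FPKM + 1) of its summed members, for the 1747 hosts whose intronic FPKM averaged 1 or more over the 6 animals. The other 3754 hosts were too low. Of the tested hosts 926 were at 0 in at least 1 animal, and a host at 0 in a whole breed passed the filter only through the other breed, so that it had to differ. A host was called when the adjusted p was under 0.05 and the log2 fold change was 1 or more in either direction. limma called 5 hosts, 0.286% of those tested. All 5 were at 0 in every animal of 1 breed, so each passed the filter only through the other breed. The zeros also add no spread within that breed, so the SE and adjusted p of these hosts are not separate support. Luxi cattle had the higher value in 3 (0.172%) and the lower value in 2 (0.114%). With quantile normalization, 8 were called, 3 higher and 5 lower, and with aligned bases in place of FPKM, 5 were called, all lower. At an unadjusted p under 0.05 there were 199 hosts (11.4%). The breeds did not overlap in 277 hosts (15.9%), 96 of them higher (5.5%) and 181 lower (10.4%) in Luxi cattle. For all annotated genes that passed the same filter, this rule called 140 of 8409 (1.66%), and 27.5% did not overlap.

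The median log2 fold change was −0.18 over the tested hosts and 0.10 over all annotated genes tested. Quantile normalization moved the hosts' median to 0.03, and size factors moved it to −0.25. By sign, 1023 hosts were lower and 724 higher in Luxi cattle, and since the median itself changed sign with the scaling no general direction is given. Of the 5 called hosts, 3 had an annotated gene that passed the filter, and limma called 0 of these genes.

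SLC25A26, the mitochondrial carrier of S-adenosylmethionine, was called higher in Luxi cattle. Its intronic FPKM was 0 in all Shandong black animals and 21.7, 16.9 and 16.2 in Luxi animals 1, 2 and 3. Nearly all of it (95.2%) came from 1 locus of 299 bases at chr22:35169102-35169400 on the minus strand. The fitted difference was 4.26 ± 0.50 (SE) on the log2(FPKM + 1) scale (limma, adjusted p = 0.0129), and it was 7.51 with a pseudocount of 0.1, since a fold against 0 has no fixed size. The annotated gene was at 1.98, 3.28 and 2.21 in Shandong black cattle and 2.59, 1.44 and 0.83 in Luxi cattle, with overlap.

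ZNF143, a zinc finger factor that binds promoters, had the same form. Its intronic FPKM was 0 in all Shandong black animals and 24.4, 7.59 and 18.2 in Luxi animals, from 1 locus at chr15:43148023-43148349 on the minus strand (difference 4.01 ± 0.58 SE, limma adjusted p = 0.0225). The annotated gene overlapped between the breeds, at 2.36 to 3.62. GLG1, a glycoprotein of the Golgi apparatus, was its mirror image, with 15, 20.3 and 15.9 in Shandong black cattle and 0 in all Luxi animals. The single GLG1 locus, chr18:2052851-2053617 on the minus strand, is 767 bases long (difference −4.16 ± 0.50 SE, limma adjusted p = 0.0129). GLG1 holds the pseudogene LOC788457 in the later assembly, and its annotated gene was at 7.90, 6.32 and 7.15 in Shandong black cattle and 8.49, 8.67 and 10.4 in Luxi cattle, a small difference without overlap that was not called (limma, adjusted p = 0.374). In these 3 hosts, then, a single fragment shorter than 1 kilobase was assembled in every animal of one breed and in none of the other.

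The other called hosts had many fragments. ZNF521, a zinc finger factor of stem and progenitor cells, was at 0 in all Shandong black animals and at 13.8, 9.99 and 16.8 in Luxi animals, from 25, 36 and 61 members (difference 3.83 ± 0.50 SE, limma adjusted p = 0.017). Its annotated gene was not higher in Luxi cattle, at 0.975, 1.31 and 1.39 in Shandong black cattle against 1.07, 0.317 and 0.399. Averaged over all intron bases, the intronic FPKM was 0.0511, 0.0108 and 0.0191 in Luxi cattle. ATP8B1, a flippase that moves phospholipids across the membrane, was at 10.2, 14.2 and 9.08 in Shandong black cattle, from 34, 45 and 27 members, and at 0 in all Luxi animals (difference −3.58 ± 0.49 SE, limma adjusted p = 0.0179). The members covered 25.2 to 34.6% of its intron bases in Shandong black cattle, and averaged over all intron bases the FPKM was 0.107, 0.094 and 0.0869. The annotated ATP8B1 transcripts went the other way without overlap, at 0.153, 0 and 0.216 in Shandong black cattle and 1.48, 0.506 and 0.956 in Luxi cattle. All 5 calls rest on 3 animals a breed, and no host was called when any animal other than Luxi animal 1 was left out, where 141 to 195 hosts remained at an unadjusted p under 0.05. Without Luxi animal 1 there were 10 calls.

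**Figure D5:**
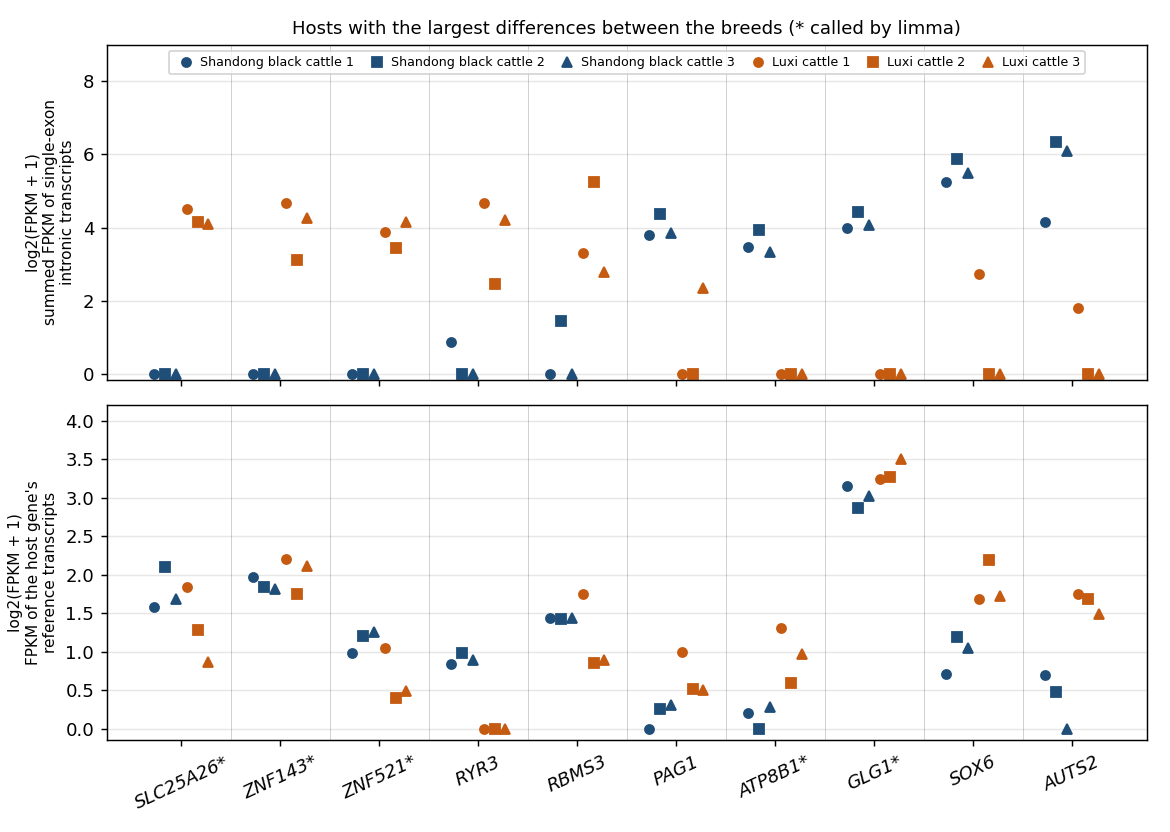
log2(FPKM + 1) of the summed intronic transcripts (top) and of the annotated transcripts (bottom) of the 10 hosts with the largest differences between the breeds, with 1 point per animal and an asterisk on the 5 hosts called by limma. SLC25A26, ZNF143 and ZNF521 are at 0 in every Shandong black animal, and GLG1 and ATP8B1 in every Luxi animal.

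A further 5 hosts whose animals did not overlap had large differences and missed the threshold on p. The first 2 of them differed by more than any called host. AUTS2, a nuclear regulator of neural development, had an intronic FPKM of 16.8, 79.8 and 67.6 in Shandong black cattle and 2.52, 0 and 0 in Luxi cattle (log2 fold change −4.92 ± 0.81 SE, limma adjusted p = 0.0508). SOX6, a transcription factor that holds back slow-fibre genes in muscle, had 36.8, 57.4 and 43.7 against 5.64, 0 and 0 (−4.62 ± 0.81 SE, limma adjusted p = 0.0643). Averaged over all intron bases these levels were 0.0497, 0.0951 and 0.0805 against 0.000825, 0 and 0 for AUTS2, and 0.11, 0.118 and 0.133 against 0.0139, 0 and 0 for SOX6. In both, the annotated transcripts ran the opposite way without overlap. The annotated AUTS2 FPKM was 0.622, 0.393 and 0 in Shandong black cattle and 2.35, 2.20 and 1.80 in Luxi cattle, and that of SOX6 was 0.644, 1.28 and 1.07 against 2.23, 3.55 and 2.29. Neither annotated gene was called (limma, adjusted p = 0.0523 and 0.0986). SOX6 also had transcripts assembled on its exons, at 1.08, 4.41 and 1.12 in Shandong black cattle and 8.18, 7.99 and 6.95 in Luxi cattle, in the same direction as the annotated ones.

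RYR3, a ryanodine receptor that releases calcium from internal stores, showed the reverse arrangement. Its intronic FPKM was 0.848, 0 and 0 in Shandong black cattle and 24.4, 4.53 and 17.5 in Luxi cattle (log2 fold change 3.49 ± 0.69 SE, limma adjusted p = 0.0833), and averaged over all intron bases it was at most 0.000624 against 0.0191, 0.00237 and 0.0133. Its annotated transcripts were at 0.785, 0.986 and 0.854 in Shandong black cattle and at 0 in all Luxi animals. Transcripts assembled on its exons overlapped, however, at 0.545, 2.51 and 1.43 against 0.969, 2.08 and 2.88, so RYR3 exon reads were present in both breeds. RBMS3, an RNA-binding protein, was at 0, 1.76 and 0 against 8.83, 37.2 and 5.96 (limma, adjusted p = 0.128). PAG1, a membrane adaptor of Src-family signalling, was at 12.9, 19.6 and 13.5 against 0, 0 and 4.08 (limma, adjusted p = 0.126), and its annotated transcripts ran the opposite way, at 0 to 0.233 against 0.42 to 0.988. Transcripts assembled on PAG1 exons overlapped, at 0.644, 0 and 0 in Shandong black cattle and 0.979, 0 and 0 in Luxi cattle.

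When the log2 intronic value was taken relative to that of the annotated gene, limma called 11 hosts (0.63% of 1747), 4 higher (0.229%) and 7 lower (0.401%) in Luxi cattle, and 247 had an unadjusted p under 0.05. With aligned bases in place of FPKM there were 20 calls, 1 of them higher. Leaving out 1 animal gave 0 calls without Shandong black animal 3 or Luxi animal 2 (172 and 187 at an unadjusted p under 0.05), 4 and 5 without Shandong black animals 1 and 2, 2 without Luxi animal 3, and 16 without Luxi animal 1. The 5 hosts already called were among the 11. SLC25A26 had the largest rise, at 4.71 (adjusted p = 0.0145, limma), and the rises of RYR3 (4.39, adjusted p = 0.0278) and ZNF521 (4.34, adjusted p = 0.0145) came next. RYR3 was not called when any 1 animal was left out. AUTS2 had the largest fall, at −6.17 (adjusted p = 0.0166, limma), before SOX6 at −5.50 (adjusted p = 0.0278) and GLG1 at −4.49 (adjusted p = 0.0278). SLC25A26, ZNF521 and GLG1 had an intronic FPKM of 0 in a whole breed. RYR3, AUTS2 and SOX6 were at 0 in all but 1 animal of a breed. These hosts passed the filter only through the other breed, so their adjusted p values are not separate support. For AUTS2, SOX6 and RYR3 the 2 terms of the ratio moved in opposite directions, whereas for SLC25A26 and ZNF521 the annotated gene overlapped between the breeds. The gene term leaves out transcripts assembled on exons, which overlapped between the breeds in AUTS2 and RYR3.

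A further 3 of the lower hosts lay outside the rule for naming and were chosen after their values were seen. LOC112448071, SLC10A7 and LOC112445193 were called only relative to their gene (limma, adjusted p = 0.0278, 0.0459 and 0.0278). On intronic FPKM alone they missed the threshold (limma, adjusted p = 0.0674, 0.0857 and 0.0833). LOC112448071 had an intronic FPKM of 31.1, 24.7 and 31.3 in Shandong black cattle and 2.69, 2.33 and 3.27 in Luxi cattle, from 60, 90 and 88 against 13, 13 and 14 members. It was above 0 in all 6 animals and narrow within each breed. Also above 0 in all 6 animals, SLC10A7, a membrane protein of the bile acid transporter family that acts in calcium regulation, was at 29.2, 30.1 and 31.9 against 3.53, 1.16 and 5.43. LOC112445193, a transcribed pseudogene, was at 15.7, 17.7 and 19.3 against 1.94, 0 and 1.91. The annotated transcripts of SLC10A7 ran the opposite way without overlap, at 0.288, 0.377 and 0.321 against 0.873, 0.595 and 0.394. So did those of LOC112445193, at 0, 0.0501 and 0 against 1.89, 0.431 and 0.16. Those of LOC112448071 were at 0.0607, 0 and 0.0463 against 0 in Luxi cattle.

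Over all genes with an intron 38.7% were hosts, and the share differed between the gene lists, without a test. Of 45 genes of the sarcomere and Z-disc 2 were hosts, PDLIM5 and NEXN, both scaffold proteins of the Z-disc and its filaments, and of 24 genes of calcium handling only RYR3 was. In the fibre membrane and cytoskeleton list, 12 of 22 genes were hosts. The 22 genes had a median span of 249.95 kilobases, against 26.4 for the 45 genes of the sarcomere. DMD, which encodes dystrophin, had an intronic FPKM of 24.0, 32.4 and 21.2 in Shandong black cattle and 46.1, 13.4 and 25.6 in Luxi cattle. A single DMD locus of 329 bases, assembled in Luxi animal 1 only, supplied 24.6 of that animal's 46.1. SGCD, a sarcoglycan, ranged from 0 to 21.9 with overlap, and SVIL, which encodes supervillin, had members in Luxi animal 1 only (28.5).

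limma called 0 hosts in the 10 lists of genes examined. With 0.286% of all tested hosts called, few or no calls would fall in lists of this size. Of all tested hosts 11.4% had an unadjusted p under 0.05. In the fibre membrane and cytoskeleton 8 hosts were tested, 2 had an unadjusted p under 0.05, and the median log2 fold change was −0.43, against −0.18 over all hosts tested. In splicing and RNA binding 14 of 61 genes were hosts, 7 were tested, 1 had an unadjusted p under 0.05, and the median was −0.73. In the regulators of growth, protein turnover and the clock 17 of 50 were hosts, 9 were tested, 1 had an unadjusted p under 0.05, and the median was −0.05. Fat cell and lipid genes gave 7 hosts of 41, 4 of them tested and 0 with an unadjusted p under 0.05, with a median of −0.22. Glycolysis and glycogen gave 4 hosts of 24, mitochondrial energy and creatine 5 of 33, and extracellular matrix 4 of 38, with 2, 3 and 1 tested and 0, 2 and 0 at an unadjusted p under 0.05.

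Members of these lists varied widely between animals of 1 breed. RBM20, the splicing regulator of titin, was at 2.49, 12.1 and 13.2 in Shandong black cattle and at 32.6, 0 and 0 in Luxi cattle. RBFOX1, a splicing factor of muscle and brain, ranged from 0.209 to 12.2, and PTBP2, a repressor of exons, from 0 to 16.1. EYA4, a transcriptional co-activator of muscle development, was highest in Luxi animal 1 (46.6) and at 2.11 to 18.4 elsewhere, and CLOCK, of the circadian oscillator, was highest in Shandong black animal 2 (18). Among the lipid genes LEPR, the leptin receptor, was above 0 in all 6 animals, at 0.223 to 6.79, and ACACB and GPAM had members in 1 animal each. Values of this kind overlapped between the breeds and did not pass the test.

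FOXO1, a transcription factor of muscle wasting and fasting, had a called annotated gene. Its annotated FPKM was higher in Luxi cattle, at 8.24, 4.73 and 5.53 in Shandong black cattle and 38.2, 36.0 and 27.6 in Luxi cattle (log2 fold change 2.30, limma adjusted p = 0.0145). Its members numbered 1 in each of Shandong black animals 2 and 3, with an FPKM of 8.61 and 7.19, and none was assembled in the other 4 animals, so a change in its introns could not be followed. Without Shandong black animal 3 limma called 0 annotated genes, FOXO1 included, with 1065 at an unadjusted p under 0.05.

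Of 47 genes named by the study, 17 were hosts, 6 were tested, and 3 had an unadjusted p under 0.05, beside 38.7% hosts and 11.4% at that p over all. The study chose these genes on the same animals, so their direction is not independent evidence. PPARGC1A, the co-activator of mitochondrial biogenesis, had an intronic FPKM of 8.66, 0 and 7.01 in Shandong black cattle and 47.2, 8.31 and 32.7 in Luxi cattle, with overlap through Luxi animal 2 (limma, adjusted p = 0.413). Its annotated transcripts were at 0, 1.70 and 1.66 against 37.5, 5.18 and 7.14, higher in every Luxi animal but not called (limma, adjusted p = 0.119). PFKFB3, which makes the activator of phosphofructokinase, was higher in every Luxi animal on both scales. Its introns were at 0.858, 1.63 and 1.67 against 6.04, 4.39 and 2.33 (log2 fold change 1.09 ± 0.53 SE, limma adjusted p = 0.492), and its annotated transcripts at 2.92, 3.79 and 4.40 against 24.2, 347 and 129 (limma, adjusted p = 0.058). The order within Luxi cattle differed, since animal 1 had the highest intronic and the lowest annotated value. ESRRG, an orphan nuclear receptor and partner of PPARGC1A from the list of mitochondrial energy, was at 1.66, 7.02 and 2.29 against 80.7, 36.4 and 3.03, with overlap.

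ANKRD6, an ankyrin repeat protein of Wnt signalling, followed the pattern of SOX6, with intronic and annotated transcripts in opposite directions. Its intronic FPKM was 11.2, 8.24 and 2.23 in Shandong black cattle and 0 in all Luxi animals (difference −2.84 ± 0.60 SE, limma adjusted p = 0.0935), while its annotated transcripts were at 0.312, 0.638 and 0.397 against 1.45, 1.88 and 2.32. Neither difference passed the test, and the animals overlapped in neither.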

How the data were processed

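RNA of longissimus dorsi was sequenced with 1 library per animal. Per the study's Methods, the authors trimmed reads with Fastp and aligned them with HISAT2 to ARS-UCD1.2. Per the file headers, they ran StringTie 1.3.3b with the --rf strand option per library, with the NCBI annotation as a guide. They deposited transcripts with coverage (mean reads per base) and FPKM, which StringTie scales by library depth. Whole-number read counts were not used, so no counting error is given, and precision is limited by 3 animals a breed.

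Here, members were found and their FPKM was summed per host and animal. Hosts were compared with limma 3.58.1 in R 4.3.3 (lmFit, eBayes with trend, log2(FPKM + 1), Benjamini-Hochberg adjustment), tested on simulated data first. Values per animal were compared by exact two-sided permutation tests. The study's test, Cuffdiff, needs alignments. The members and gene lists were chosen with earlier results of these data known. Named were the 15 hosts of highest mean intronic FPKM, the 5 largest rises and 5 largest falls (called, then filled by non-overlapping hosts), the 3 highest hosts of each list, the 3 largest relative rises and falls called, and genes the study names. Gene types came from the ARS-UCD2.0 table by name. No sequence is shown, since no genome of this build was used here. Alternatives varied the members, pseudocount, filter, scaling and animals.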

Additional observations from a re-analysis of the deposited data

How the results depend on the processing

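With at most 3 animals a breed the exact permutation tests allow no p under 0.1. The breeds' difference in the members' share of FPKM and in their number therefore could not be called under any setting. Counting only members with an FPKM of at least 1 turned both positive, to 0.291 percentage points and 222 transcripts, and leaving out 1 animal gave −1.23 to 0.164 points (positive without Shandong black animal 2, 0.0816, or Luxi animal 3) and −8806 to −1908 transcripts. The 5 hosts called became 8 with quantile normalization, 3 with members of at least 1 FPKM and 9 with members of at least 0.2 FPKM, an alternative chosen after seeing the data, and leaving out 1 animal gave 0 to 10. The 11 hosts called relative to their gene became 7 with a pseudocount of 0.1, 6 with TPM, 4 with members of at least 1 FPKM and 20 with aligned bases, also chosen after seeing the data, and 0 to 16 without 1 animal. The 140 annotated genes called became 40 with a pseudocount of 0.1, 45 with no filter, 77 with a mean of at least 5, 224 with quantile normalization and 0 to 395 without 1 animal (0 without Shandong black animal 3, with 1065 at an unadjusted p under 0.05, and 395 without Luxi animal 1). The count of other transcript classes without overlap went from 0 to 1 in aligned bases and 0 to 3 without 1 animal. The median rank correlation with gene FPKM went from 0.257 to 0.305 with transcripts assembled on exons and 0.0752 among hosts of at least 1 FPKM. The cause of these changes was not tested.

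Same-numbered animals of the breeds are different animals, and their deviations from the breed means correlated at 0.04, 0.048 and 0.0045. The other pairs were at −0.0425 to 0.00663. All lay under the limit of 0.1 set for pairing, so the main fits used no pairing. Whether same-numbered libraries shared a batch was not tested. With the replicate number as a block limma called 0 hosts (163 at an unadjusted p under 0.05), 0 hosts relative to their gene (222) and 29 annotated genes, and the exact paired p was 0.75 for both the share (−0.36 points) and the number (−5245).

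For the 10 hosts named for their difference between the breeds, 0 settings reversed the sign. They were chosen among hosts called or without overlap between the breeds. That choice leaves little room for a reversal, so the steady sign is not separate support. AUTS2, at an adjusted p of 0.0508 (limma), passed under 9 of 20 other settings (0.0129 to 0.944), among them no filter, quantile normalization, aligned bases and leaving out Luxi animal 1, and SOX6 under 5 of 20 (0.0174 to 0.739). An animal just under a coverage of 2.5 is listed at 0, which limits every weak member.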
